A study of Mus musculus with 4 samples.

Results

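Lcn2, Saa3 and Hmox1 are 3 genes of acute-phase, iron and heme defence, described here in inflamed distal colon of mice labelled as Elf4 knockout, which encodes an Ets transcription factor. They were taken by symbol from a deposited table of 4121 genes that differed between Elf4-KO and WT colon, and all 3 were found. They were chosen for their difference in this same comparison, so their FPKM values are given as a description without a test.

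The study compared 2 Elf4-KO samples with 2 WT samples of colon RNA. All mice were C57BL/6 and aged 8 weeks, and all had received dextran sulfate sodium (DSS) at 3%, a sulfated polysaccharide that damages the gut lining and provokes colitis, and the tissue was collected at day 6. No sample without DSS was analysed here, so every value refers to colitis. The labels do not give the way the Elf4 allele was made, the sex of the mice, or whether samples of 1 genotype are from separate animals.

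The deposited table held 1 FPKM value per gene and genotype (fragments scaled to transcript length and to the number of mapped fragments). No spread between samples, SD or n can therefore be given for any value, and the depth is unknown. By the values, each listed gene had a difference of at least 2-fold between the genotypes and a q of at most 0.05, and genes outside the table are not analysed here. "Rose" and "fell" rest on the authors' call. Unless another q is given, q was 0.000372 in the authors' deposited table, which is the smallest value it holds and is shared by 2233 genes. Elf4 itself was at 3.51 FPKM in Elf4-KO colon and 16.4 FPKM in WT colon.

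Lcn2 encodes lipocalin 2, a secreted protein that binds siderophores, the small molecules with which bacteria capture iron. It is made by neutrophils and by inflamed epithelium, and its protein in stool is a common marker of intestinal inflammation. Saa3 encodes a serum amyloid A, a family of small lipoproteins that rise steeply in the acute-phase response. In mice, Saa1 and Saa2 are the main liver forms and are also made by intestinal epithelium, while Saa3 is made mainly outside the liver, in macrophages, fat cells and epithelium. Hmox1 encodes heme oxygenase 1, the inducible enzyme that splits heme into biliverdin, carbon monoxide and iron, and which macrophages use when they clear red blood cells.

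Lcn2 (ENSMUSG00000026822) lies at chr2:32384633-32388252 and Saa3 (ENSMUSG00000040026) at chr7:46711998-46715700, both on the minus strand of GRCm38. Hmox1 (ENSMUSG00000005413) lies at chr8:75093621-75100589 on the plus strand. All 3 are annotated as protein-coding in GENCODE M21, where the transcript with the longest coding part has 7 exons for Lcn2, 4 for Saa3 and 5 for Hmox1. The coding part of that Lcn2 transcript, 815 bases, is not a multiple of 3, so this transcript may be incomplete. For each of the 3 the deposited locus matched the annotated gene, and no other listed gene overlapped it.

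The 250 bases before the RefSeq start of Lcn2 and Saa3, which had nearly the same fold, are shown with those of Saa1, a neighbour of Saa3 that moved the other way. An entry was found for 2 of the 3 members, Lcn2 and Saa3. The sequences are from RefSeq (GRCm38.p6), 5′ to 3′ on the minus strand, at chr2:32387740-32387989, chr7:46715677-46715926 and chr7:46742981-46743230. Capitals mark matches on either strand to the C/EBP pattern TTNNGNAA and to an NF-kB pattern of GGG and CC with any 5 bases between them, both loose versions of the sites of factors known to act on acute-phase genes.
Lcn2: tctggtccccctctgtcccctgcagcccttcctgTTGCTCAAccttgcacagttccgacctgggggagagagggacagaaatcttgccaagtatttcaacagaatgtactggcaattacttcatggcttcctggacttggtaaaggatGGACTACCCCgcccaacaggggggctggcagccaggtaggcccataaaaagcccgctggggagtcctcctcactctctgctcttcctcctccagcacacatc
Saa3: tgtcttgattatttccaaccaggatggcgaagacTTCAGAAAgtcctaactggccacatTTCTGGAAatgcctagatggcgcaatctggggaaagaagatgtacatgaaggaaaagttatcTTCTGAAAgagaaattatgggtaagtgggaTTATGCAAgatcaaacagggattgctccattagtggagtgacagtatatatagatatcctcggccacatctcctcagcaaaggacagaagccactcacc
Saa1: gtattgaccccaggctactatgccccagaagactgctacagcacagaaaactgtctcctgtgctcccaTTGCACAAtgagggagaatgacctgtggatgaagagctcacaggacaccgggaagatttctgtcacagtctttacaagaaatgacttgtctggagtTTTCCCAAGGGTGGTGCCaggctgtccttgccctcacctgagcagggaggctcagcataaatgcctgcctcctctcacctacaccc

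Saa3 held 4 matches to the C/EBP pattern, beginning 216, 191, 129 and 99 bases before its start. Saa1 held 2, at 182 and 86 bases, and Lcn2 held 1, at 216 bases. The NF-kB pattern was found once in Lcn2, at 102 bases, and once in Saa1, at 78 bases, where it follows directly on the second C/EBP match. These letters are common. Of 32851 windows of this length in the table, 36.8% held the C/EBP pattern and 45.8% the NF-kB pattern.

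Other patterns were searched in the same windows. The GGAA core shared by Ets factors was found 4 times in Lcn2, 4 times in Saa3 and 2 times in Saa1, and 93.4% of all windows held it. At 187 bases in Saa3 and at 85 bases in Saa1 it overlapped a C/EBP match. The longer Ets pattern CCGGAA (in 12.03% of windows), the STAT pattern TTCNNNGAA (7.02%), the AP-1 pattern TGACTCA (4.46%) and TATAAA (12.4%) had no match in the windows of Lcn2, Saa3 and Saa1. The core of the antioxidant response element, TGANNNNGC, was found once in Saa3, at 95 bases, where it overlaps the C/EBP match at 99 bases, and in 35.2% of all windows. The annotated Lcn2 gene in GENCODE begins farther upstream than the RefSeq start, so the Lcn2 window lies within it. A match is not evidence of binding, and a missing match says only that these letters are not in the window.

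All 3 genes were much higher in Elf4-KO colon. Saa3 was at 5686 FPKM in Elf4-KO colon and 436 FPKM in WT colon, a 13.0-fold difference. Lcn2 was at 1163 FPKM in Elf4-KO colon and 88.7 FPKM in WT colon, a 13.1-fold difference. Hmox1 was at 596 FPKM in Elf4-KO colon and 20.6 FPKM in WT colon, a 28.9-fold difference. Among the 4121 listed genes 48.0% were higher in the knockout, and 2.84% were higher by at least 10-fold, as all 3 were. These values chose the 3 genes, so nothing is read from that share.

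The order of levels was the same in both genotypes, with Saa3 highest, then Lcn2, then Hmox1. Without a spread it cannot be said which neighbours in this order differ. The FPKM of Saa3 was 4.89 times that of Lcn2 in Elf4-KO colon and 4.91 times in WT colon. The FPKM of Lcn2 was 1.95 times that of Hmox1 in Elf4-KO colon and 4.30 times in WT colon. Saa3 and Lcn2 thus kept nearly the same ratio, while Hmox1 came closer to Lcn2 in the knockout.

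In Elf4-KO colon the 3 genes stood among the highest of the table. By FPKM, Saa3 ranked 6, Lcn2 30 and Hmox1 55 of the 4121 listed genes in Elf4-KO colon. In WT colon Saa3 ranked 119, Lcn2 503 and Hmox1 1443. By the log2 ratio of knockout over wild type, computed after adding 1 to both FPKM values, Hmox1 had 4.79 and ranked 9. Saa3 had 3.70 and ranked 31, and Lcn2 also had 3.70 and ranked 32. The median log2 ratio of all listed genes was -0.76.

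**Figure D1:**
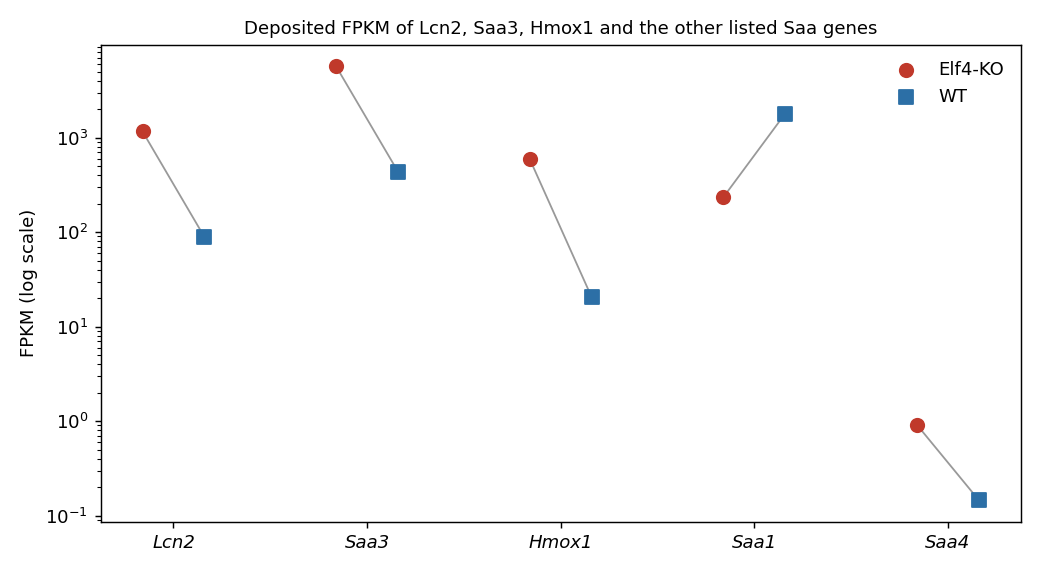
FPKM (log scale) of Lcn2, Saa3, Hmox1, Saa1 and Saa4, with red circles for Elf4-KO and blue squares for WT, 1 deposited value per genotype. Of these 5 genes Saa1 alone has the Elf4-KO value (233 FPKM) below the WT value (1793 FPKM).

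**Figure D2:**
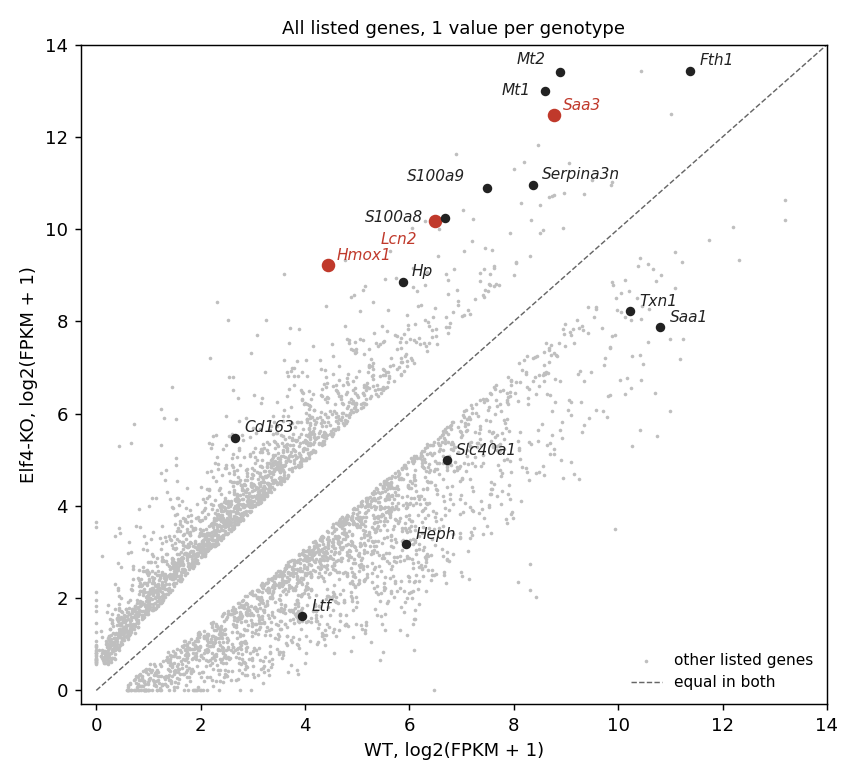
Each listed gene by its level in Elf4-KO colon (vertical) and WT colon (horizontal), both as log2(FPKM + 1), with the dashed line marking equal levels. Lcn2, Saa3 and Hmox1 (red) lie far above the line, and the empty band along it comes from the 2-fold limit of the table.

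The genes with the most similar pair of levels were found by distance on the log2(FPKM + 1) scale over the 2 groups. Nearest to Lcn2 were the kappa variable segment Igkv8-27 (1149.9 FPKM in Elf4-KO and 78.0 FPKM in WT), S100a8, a calprotectin subunit of neutrophils (1202 FPKM in Elf4-KO and 101.4 FPKM in WT), and the immunoglobulin segments Ighv7-3 and Igkv6-13. Nearest to Saa3 were the metallothionein gene Mt1 (8174 FPKM in Elf4-KO and 388 FPKM in WT), the lambda constant segment Iglc1, the metallothionein gene Mt2 (10908 FPKM in Elf4-KO and 473 FPKM in WT) and Dcn, which encodes the matrix proteoglycan decorin. Nearest to Hmox1 were Retnlg, a resistin-like gene of neutrophils (643 FPKM in Elf4-KO and 26.3 FPKM in WT), the phosphatase gene Dusp1, the kappa segment Igkv4-58 and the collagenase gene Mmp13. With only 2 values per gene, this likeness means a similar level and fold. Reads of immunoglobulin segments and of metallothionein genes may be split among near-identical copies.

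The Saa genes on chromosome 7 did not move together. Saa1, which encodes the main acute-phase form, was at 233 FPKM in Elf4-KO colon and 1793 FPKM in WT colon, a fall of 7.70-fold, beside 52.0% of all listed genes that were lower in the knockout. Saa4, the form present in plasma without inflammation, was near the lower end of the table, at 0.919 FPKM in Elf4-KO colon and 0.146 FPKM in WT colon (q = 0.00811 in the authors' deposited table). Saa2 was not listed. The FPKM of Saa3 was 24.4 times that of Saa1 in Elf4-KO colon and 0.243 times in WT colon. Of the summed FPKM of these 3 listed genes, Saa3 made up 96.0% in Elf4-KO colon and 19.6% in WT colon. The sum itself was 5920 FPKM in Elf4-KO colon and 2229 FPKM in WT colon. The fall of Saa1 stood beside those of the 15 listed epithelial markers given below, and the part of the epithelium was not tested.

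The coding sequences of Saa1 and Saa2 are identical at 95.1% of aligned positions, so reads may be split between these genes and the Saa1 value is uncertain. Saa3 is identical to Saa1 at 75.7% and to Saa4 at 63.5%. The gene next to Saa3 on one side is Saa4, with a gap of 12.3 kb, and on the other Saal1, 1.32 kb away, which was not listed. Next to Hmox1, with a gap of 8.98 kb, lies the replication gene Mcm5, chosen by position after its values were seen. It fell to 5.03 FPKM in Elf4-KO colon, against 13.9 FPKM in WT colon. The nearest coding genes on either side of Lcn2 were not listed.

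Markers of cell types that can make these proteins moved in the same comparison. Of 14 neutrophil markers 11 were listed and 9 of them rose, beside 48.0% of all listed genes. The summed FPKM of all 11 markers was 4180 in Elf4-KO colon and 1203 in WT colon. The 2 that fell were Ltf and Ly6g, a surface marker of mouse neutrophils chosen after its values were seen, at 145.7 FPKM in Elf4-KO colon and 854 FPKM in WT colon. Without Ly6g, a sum chosen after the data were seen, the FPKM values add up to 4034 in Elf4-KO colon and 348 in WT colon. This sum leaves out the listed marker with the largest fall in FPKM, so it cannot stand for the list. Its highest Elf4-KO values were those of S100a9, S100a8 and Retnlg, at 1888, 1202 and 643 FPKM. All 6 listed genes among 14 markers of monocytes and macrophages rose, beside 48.0% of all listed genes. Their summed FPKM was 653 in Elf4-KO colon and 165 in WT colon. The other 8, among them Csf1r and Adgre1, were not listed. Of 16 epithelial markers 15 were listed and 15 fell, beside 52.0% of all listed genes. Their summed FPKM was 914 in Elf4-KO colon and 10336 in WT colon. No listed marker of these 3 lists was at 0 in either genotype. Lcn2 (13.1-fold) lay inside the wide range of the 9 neutrophil markers that rose, from 2.43-fold to 108-fold. That range leaves out Ltf and Ly6g, which fell 7.01-fold and 5.86-fold. For the neutrophil marker at 108-fold, q was 0.000998 in the authors' deposited table. Hmox1 (28.9-fold) lay just below Marco, the highest of the macrophage markers, at 30.7-fold, while the next highest, Cd163, rose 8.15-fold. No source is read from these positions. In tissue RNA, more cells of a type and more RNA per cell cannot be told apart, and the part of these cell types in the values of Lcn2, Saa3 and Hmox1 was not tested.

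Hepatocyte markers were included because the liver makes most acute-phase proteins. Of 9, only 3 were listed, the cytochrome gene Cyp2e1 (45.2 FPKM in Elf4-KO and 5.92 FPKM in WT), Apoa1 (3.40 FPKM in Elf4-KO and listed at 0 in WT) and Tat, which fell to 10.8 FPKM in Elf4-KO colon, against 64.4 FPKM in WT colon. The albumin gene Alb was not listed.

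Other acute-phase genes were mostly higher. Apart from Lcn2 and Saa3, 18 acute-phase genes were listed, of which 17 rose and 1, Saa1, fell, beside 48.0% and 52.0% of all listed genes. The median log2 ratio of these 18 was 1.79. Of the 29 genes of the whole list, 9 were not listed, among them Saa2, Hpx for the heme carrier hemopexin, Crp and Hamp for the iron hormone hepcidin.

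Serpina3n, a protease inhibitor gene and marker of acute inflammation in mice, was at 1993 FPKM in Elf4-KO colon and 328 FPKM in WT colon. Its neighbour Serpina3m rose 12.9-fold to 143 FPKM in Elf4-KO colon, and Serpina3g rose 2.65-fold to 225 FPKM. The Serpina3 genes form a cluster of similar copies, so the split between them is uncertain. Ptx3, a pentraxin gene induced locally in inflammation, was at 74.2 FPKM in Elf4-KO colon and 7.91 FPKM in WT colon, but its deposited locus is 41.3 times as long as the annotated gene and may include reads of neighbours.

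Cd14, the coreceptor for lipopolysaccharide, rose 3.16-fold to 273 FPKM in Elf4-KO colon. The complement gene C3 was at 277 FPKM in Elf4-KO colon and 128 FPKM in WT colon (q = 0.00184 in the authors' deposited table). The orosomucoid genes Orm1 and Orm2, similar copies of each other, reached 7.27 and 7.04 FPKM in Elf4-KO colon, against 0.963 and 0.586 FPKM in WT colon (q = 0.00832 and 0.0145 in the authors' deposited table). The fibrinogen gene Fga was at 0.993 FPKM in Elf4-KO colon and listed at 0 in WT colon, and Fgb was at 0.844 FPKM in Elf4-KO colon and 0.0426 FPKM in WT colon (q = 0.0466 in the authors' deposited table). The acute-phase genes thus ranged from the level of Saa3 down to below 1 FPKM for the fibrinogen genes.

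Several genes of hemoglobin and heme uptake were higher beside Hmox1. Haptoglobin (Hp), which binds free hemoglobin, was at 463 FPKM in Elf4-KO colon and 57.4 FPKM in WT colon, and Cd163, the macrophage receptor for that complex, was at 43.5 FPKM in Elf4-KO colon and 5.34 FPKM in WT colon. These were rises of 8.07-fold and 8.15-fold. Lrp1, a receptor for hemopexin among many other ligands, was at 155.8 FPKM in Elf4-KO colon and 34.0 FPKM in WT colon (q = 0.0137 in the authors' deposited table). Slc48a1, which carries heme out of lysosomes, was at 75.6 FPKM in Elf4-KO colon and 20.3 FPKM in WT colon, but its deposited locus overlaps that of another listed gene, Hdac7, so the value is uncertain.

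Of the 23 heme genes 8 were listed including Hmox1. Of the other 7, 5 were higher and 2 lower, beside 48.0% and 52.0% of all listed genes, with a median log2 ratio of 1.85. Slc46a1, a folate transporter that also carries heme, fell to 2.46 FPKM in Elf4-KO colon, against 7.17 FPKM in WT colon (q = 0.00312 in the authors' deposited table). Genes of heme synthesis gave no common direction. Alad, for an early step, fell to 5.59 FPKM in Elf4-KO colon, against 22.5 FPKM in WT colon. Urod, for a later step, was at 31.9 FPKM in Elf4-KO colon and 15.9 FPKM in WT colon, close to the 2-fold limit of the table (q = 0.00992 in the authors' deposited table). The constitutive heme oxygenase gene Hmox2 and the biliverdin reductase genes Blvra and Blvrb were not listed.

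Red blood cells are the main source of heme in bleeding tissue. Of 9 red blood cell markers, 4 globin genes were listed and all 4 rose, beside 48.0% of all listed genes. Their summed FPKM was 287 in Elf4-KO colon and 64.2 in WT colon. Their folds lay between 4.20 and 5.49, beside 28.9 for Hmox1, which was chosen for its difference. The q values of the 4 globin genes in the authors' deposited table went up to 0.0141. Alas2, another gene of developing red blood cells, was not listed. The part of blood in the heme genes was not tested.

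Iron genes moved in both directions. Fth1, the heavy chain of the iron store ferritin, was at 11087 FPKM in Elf4-KO colon, the highest value of any listed gene there, and 2667 FPKM in WT colon, a 4.16-fold difference (q = 0.000694 in the authors' deposited table). Processed copies of Fth1 are known in the genome, so its reads may be split or pooled. Ferroportin (Slc40a1), the only known cellular iron exporter of mammals, fell to 30.7 FPKM in Elf4-KO colon, against 104.1 FPKM in WT colon. Hephaestin (Heph), the oxidase that works with ferroportin in intestinal epithelium, fell to 8.00 FPKM in Elf4-KO colon, against 60.3 FPKM in WT colon. Its deposited locus is 2.25 times as long as the annotated gene. Ceruloplasmin (Cp), an acute-phase protein and another oxidase that works with ferroportin, rose to 183 FPKM in Elf4-KO colon, against 40.3 FPKM in WT colon.

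Iron uptake routes differed in direction. The transferrin receptor gene Tfrc, which dividing cells use, fell to 14.8 FPKM in Elf4-KO colon, against 47.2 FPKM in WT colon. Slc39a14, a transporter that can take up iron not bound to transferrin and is induced in the acute phase in liver, was at 142 FPKM in Elf4-KO colon and 18.6 FPKM in WT colon. The related Slc39a8 was at 8.58 FPKM in Elf4-KO colon and 3.76 FPKM in WT colon, with a q of 0.00359 in the authors' deposited table. Slc11a1, which removes iron and manganese from the phagosome of macrophages and neutrophils, rose 4.33-fold and was at 82.3 FPKM in Elf4-KO colon and 19.0 FPKM in WT colon. Steap4, a metalloreductase gene, rose 4.05-fold to 109 FPKM in Elf4-KO colon. The gene for transferrin itself, Trf, was at 156.6 FPKM in Elf4-KO colon and 60.1 FPKM in WT colon, with a q of 0.0117 in the authors' deposited table and a locus 1.60 times as long as the annotated gene.

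Of the 33 iron genes, 13 were listed including Lcn2. Of the other 12, 8 were higher and 4 lower, beside 48.0% and 52.0% of all listed genes, with a median log2 ratio of 1.36. The 4 that fell were Tfrc, Slc40a1, Heph and Ltf. These falls stood beside those of the 15 listed epithelial markers, from 4.11-fold to 27.6-fold, and the part of the epithelium was not tested. Ftl1 for the ferritin light chain, Slc11a2 for the iron importer of epithelium, and the genes of the iron-regulatory proteins, Aco1 and Ireb2, were not listed.

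**Figure D3:**
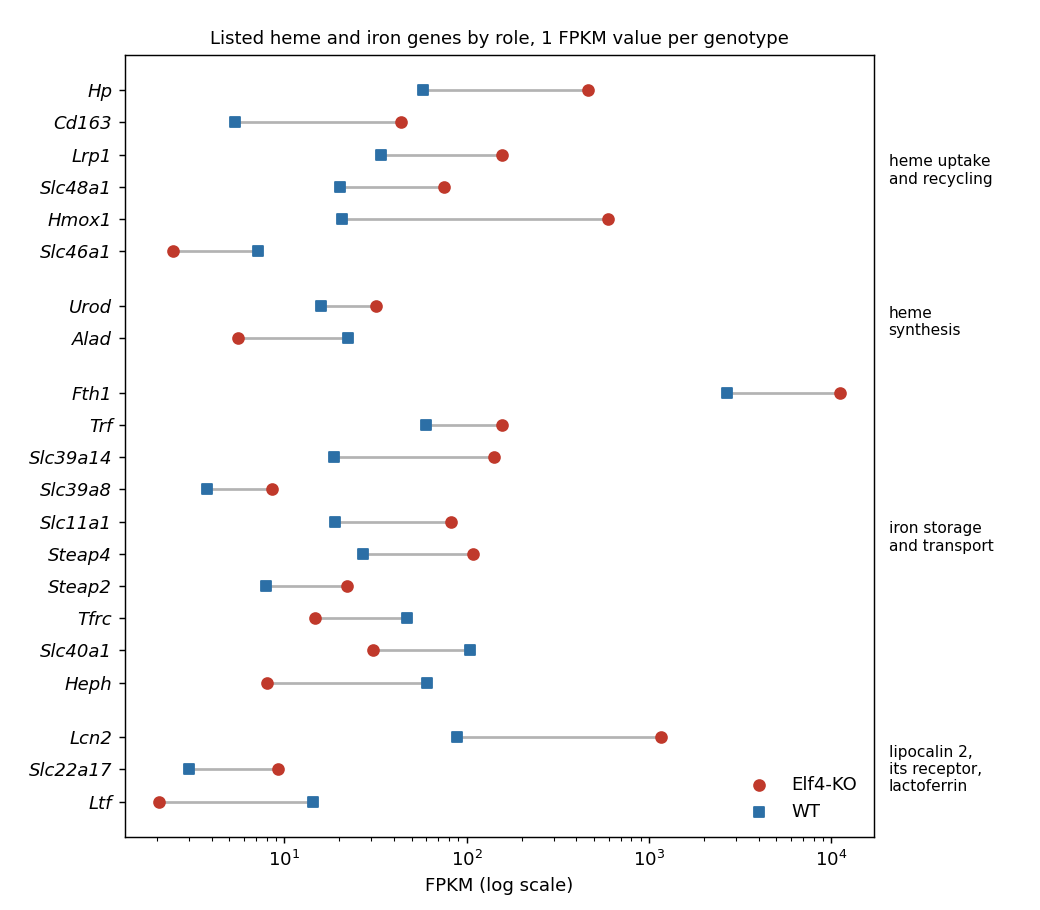
FPKM (log scale) of listed heme and iron genes grouped by role, with red circles for Elf4-KO and blue squares for WT, 1 value per genotype. Hmox1 and Lcn2 have the red circle farthest to the right of the blue square, and Fth1 has the highest levels. Slc46a1, Alad, Tfrc, Slc40a1, Heph and Ltf have the red circle to the left of the blue square.

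The iron-binding defence proteins of neutrophils did not share a direction. Ltf encodes lactoferrin, which binds iron and is stored with lipocalin 2 in the specific granules of neutrophils. It fell to 2.05 FPKM in Elf4-KO colon, against 14.4 FPKM in WT colon, a 7.01-fold difference. The FPKM of Lcn2 was 566 times that of Ltf in Elf4-KO colon and 6.16 times in WT colon. S100a8 and S100a9, the calprotectin subunits that bind zinc and manganese, rose 11.8-fold and 10.6-fold. The FPKM of Lcn2 was 0.968 times that of S100a8 in Elf4-KO colon and 0.875 times in WT colon.

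Of the listed metallothionein genes, whose proteins bind zinc and copper, Mt1, Mt2 and Mt3 rose by more than Lcn2 and Saa3 in these values, while Mt4 fell. Mt1 rose 21.0-fold, Mt2 23.1-fold, and Mt3, chiefly known from brain, was at 110.6 FPKM in Elf4-KO colon and 4.80 FPKM in WT colon. Mt4, a gene of stratified epithelium, was listed at 0 in Elf4-KO colon and at 1.32 FPKM in WT colon (q = 0.037 in the authors' deposited table). The deposited locus of Mt2 is 3.12 times as long as the annotated gene. S100a10, which unlike S100a8 does not bind calcium, fell 5.02-fold to 308 FPKM in Elf4-KO colon.

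Some oxidative stress genes that, like Hmox1, are known targets or partners of the factors Nrf2 and Bach1 were listed. They changed less than Hmox1, but Hmox1 was chosen for its difference, so nothing is read from that order. Besides Hmox1, 7 of the other 19 were listed, 6 higher and 1 lower, beside 48.0% and 52.0% of all listed genes. Their median log2 ratio was 1.22. Slc7a11, which imports cystine for glutathione, was at 29.6 FPKM in Elf4-KO colon and 3.81 FPKM in WT colon, a 7.76-fold difference. Gclc, for the first step of glutathione synthesis, rose 3.18-fold and Me1, for NADPH supply, rose 2.18-fold. The small Maf genes Maff and Mafg, whose proteins pair with Nrf2 and Bach1, rose 2.70-fold and 2.43-fold (q = 0.00335 for Mafg in the authors' deposited table), with a deposited Mafg locus 1.80 times as long as the annotated gene. Thioredoxin (Txn1) fell to 297 FPKM in Elf4-KO colon, against 1199.8 FPKM in WT colon. Nqo1, Gclm, Txnrd1 and Srxn1, other common targets of Nrf2, were not listed, and neither were Nfe2l2, Bach1 and Keap1.

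Cytokines that induce or may modulate acute-phase genes rose where listed. Of 12 such genes 9 were listed and 9 rose, beside 48.0% of all listed genes, with a median log2 ratio of 2.57, while Tnf, Il17f and Il22 were not listed. Il6, a main inducer in liver, was at 118 FPKM in Elf4-KO colon and 11.6 FPKM in WT colon. Its relatives, which signal through the same receptor chain gp130, were oncostatin M (Osm), at 18.7 FPKM in Elf4-KO colon and 1.545 FPKM in WT colon, Lif, up 7.31-fold, and Il11, up 6.06-fold. Il1b, an inducer of Lcn2 and Saa3 in many cells, was at 262 FPKM in Elf4-KO colon and 77.6 FPKM in WT colon, and Il1a rose 5.73-fold. The deposited locus of Il1b is 1.70 times as long as the annotated gene. Il17a was at 2.64 FPKM in Elf4-KO colon and 0.355 FPKM in WT colon (q = 0.0164 in the authors' deposited table).

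Their receptors split by direction. The interleukin 1 receptor gene Il1r1 was at 101.8 FPKM in Elf4-KO colon and 26.9 FPKM in WT colon, and its partner Il1rap rose 2.75-fold. The gp130 gene Il6st rose 2.34-fold, Il6ra 3.06-fold, Lifr 2.42-fold and Osmr 2.17-fold. Other receptor genes fell. Il22ra1, for interleukin 22, fell to 2.31 FPKM in Elf4-KO colon, against 11.0 FPKM in WT colon, and Il17rc, for interleukin 17, fell to 15.4 FPKM in Elf4-KO colon, against 72.2 FPKM in WT colon. The other interleukin 17 chain, Il17ra, was at 21.4 FPKM in Elf4-KO colon and 9.06 FPKM in WT colon, and the kinase gene Tyk2 at 5.50 FPKM in Elf4-KO colon and 11.9 FPKM in WT colon. The deposited locus of Tyk2 is 2.53 times as long as the annotated gene. In the authors' deposited table q was 0.00753 for Il17ra and 0.0452 for Tyk2. The falls of Il22ra1 and Il17rc stood beside those of the 15 listed epithelial markers, whose falls ranged from 4.11-fold to 27.6-fold, and the part of the epithelium was not tested.

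Of 16 transcription factors and feedback regulators, 4 were listed and rose, beside 48.0% of all listed genes. Cebpb, whose protein binds the C/EBP sites of acute-phase genes, was at 386 FPKM in Elf4-KO colon and 105 FPKM in WT colon, and Cebpd at 186 FPKM in Elf4-KO colon and 59.8 FPKM in WT colon. The deposited loci of both are far longer than the annotated genes (91.2 and 69.3 times), so reads of neighbours may be included. Nfkbia, an inhibitor and target of NF-kB, rose 3.13-fold, and Tnfaip3, another feedback inhibitor of that pathway, rose 2.45-fold. Stat3, Socs3, Nfkbiz and the NF-kB subunit genes were not listed.

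Receptors and partners of serum amyloid A and lipocalin 2 rose where listed. Of 12, 7 were listed and 7 rose, beside 48.0% of all listed genes, with a median log2 ratio of 2.19. Fpr1 and Mmp9 are also among the neutrophil markers above. Fpr2, a formyl peptide receptor that binds serum amyloid A, was at 130.6 FPKM in Elf4-KO colon and 24.3 FPKM in WT colon, with a deposited locus 13.7 times as long as the annotated gene. Its relative Fpr1 rose 11.7-fold to 83.4 FPKM in Elf4-KO colon. The scavenger receptors Cd36 and Scarb1 rose 4.79-fold and 2.63-fold. Mmp9, a protease that lipocalin 2 binds, was at 28.7 FPKM in Elf4-KO colon and 5.02 FPKM in WT colon. Slc22a17, reported as a receptor of lipocalin 2, was at 9.26 FPKM in Elf4-KO colon and 2.99 FPKM in WT colon (q = 0.000694 in the authors' deposited table). Tlr2 and Tlr4, further receptors of serum amyloid A, were not listed.

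Over the 9 pathway lists together, 79 genes besides Lcn2, Saa3 and Hmox1 were listed. Of these 66 rose and 13 fell, beside 48.0% and 52.0% of all listed genes. Their median log2 ratio was 1.62, beside -0.76 for all listed genes. The lists were written with earlier results of these data known, and only genes with a difference are in the table, so the counts describe these values and are no test. Of 9 fibroblast markers 6 were listed and 6 rose, beside 48.0% of all listed genes. Their summed FPKM was 4647 in Elf4-KO colon and 1292 in WT colon. Of 8 endothelial markers 7 were listed and 7 rose, beside the same 48.0%. Of 8 T cell markers 7 were listed and 7 fell, beside 52.0% of all listed genes.

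**Figure D4:**
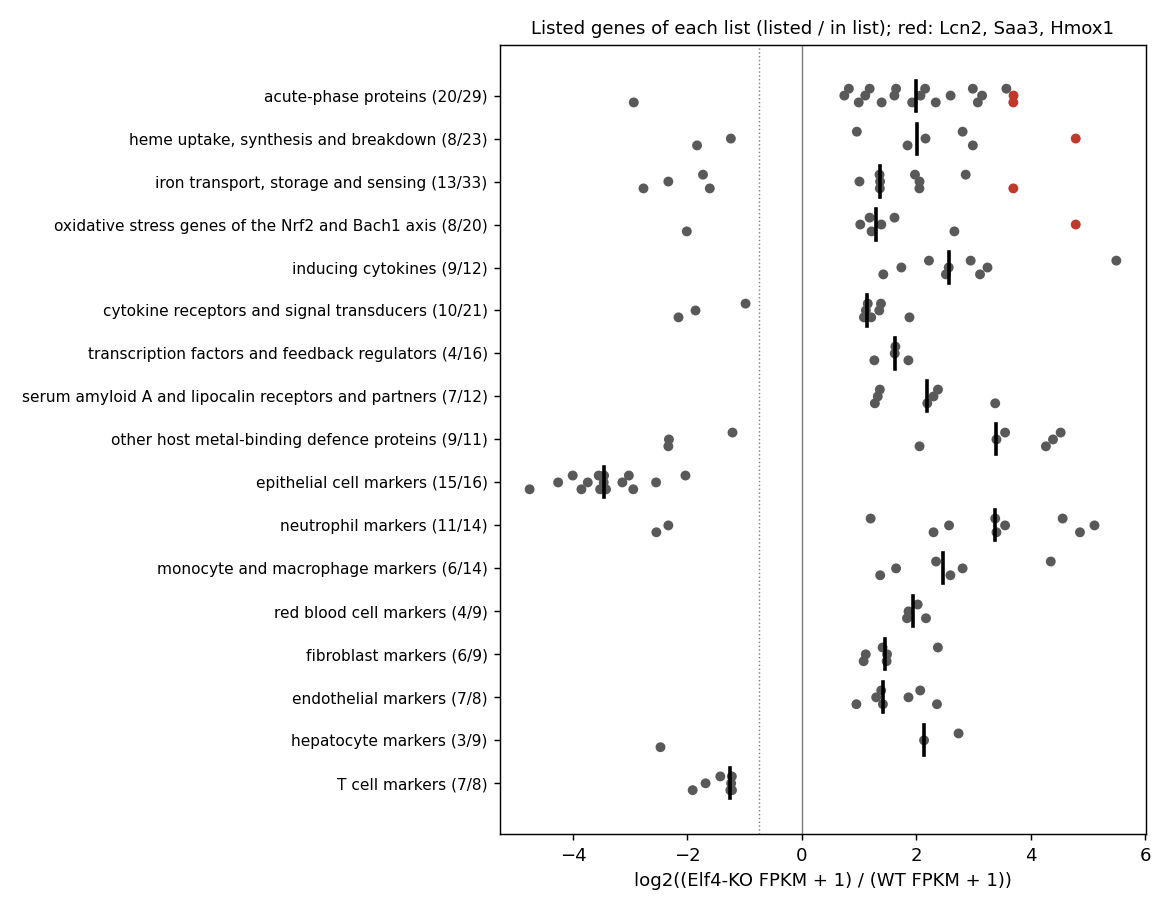
Log2 ratio of Elf4-KO over WT (after adding 1 FPKM) of each listed gene by list, with a black bar at the list's median, a dotted line at the median of all listed genes (-0.76) and red points for Lcn2, Saa3 and Hmox1. Listed epithelial markers lie to the left of 0, while most acute-phase genes lie to the right, with Saa1 at -2.94 apart from them.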

How the data were processed

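RNA of inflamed distal colon was sequenced in 2 Elf4-KO and 2 WT samples after mRNA library preparation, per the labels' protocols. Bowtie 0.12.2, Cufflinks 2.2.1 and mm8 are named without roles in the submitters' processing notes. The deposited table holds 1 FPKM value per gene and genotype, made by the authors from both samples by steps that no source used here describes, and a p-value and q-value of the authors' comparison, per the file headers. No source used here says if the library kept strand. The deposited coordinates are on GRCm38, since 4114 of 4116 identifiers found in GENCODE M21 lie on the annotated gene, and are printed counting from 1.

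The table has no values per sample, so no test, SD or interval was computed, and the depth is unknown. Log2 ratios have 1 FPKM added to each value first, so changes of low genes come out smaller, and folds are from FPKM alone. The 3 genes, 17 lists and the naming rule were chosen with earlier results of these data known. Every listed gene of the 9 pathway lists could be named, and for each of the 3 genes the 4 nearest listed genes, with up to 3 genes of a marker list. The values of 1 gene that is part of the counts are not reported here. Coding sequences were aligned with Biopython 1.88 (GENCODE M21 transcripts), and promoters came from RefSeq. The calculations were tested on simulated data. Python 3.11.15, numpy 2.4.6, pandas 2.3.3 and matplotlib 3.10.9 were used. Alternatives were pseudocounts of 0.1 and 0, centring, a q of at most 0.01, at least 4-fold, FPKM minimums of 1 and 5, and the 300-base promoter window. A comparison of protein sequences was planned but not run.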

Additional observations from a re-analysis of the deposited data

How the results depend on the processing

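No paired analysis was possible because each genotype has a single deposited FPKM per gene. Leaving out each sample was not run either, so the weight of any 1 sample in these values cannot be given. A shift of over 1.5 times counted as a change. Centring on the median of all listed genes (-0.76) gave log2 ratios of 4.45 for Lcn2, 4.46 for Saa3 and 5.55 for Hmox1. Taken as folds, all 3 shifts were over 1.5 times and so counted as a change. Centring changed the sign of 0 of the 82 listed genes of the pathway lists. With pseudocounts of 0.1 and 0 the ratios of the 3 genes moved by less than 1.5 times. A limit of 4-fold left 1544 of the 4121 listed genes (533 higher, 1011 lower) and 49 of the 82 pathway genes (40 higher, 9 lower), fewer by construction. By list, this limit left 0 of 4 transcription factors and regulators, 2 of 10 cytokine receptors (0 higher and 2 lower, against 7 higher and 3 lower without it), 3 of 8 oxidative stress genes, 4 of 7 receptors and partners, 5 of 8 heme genes and 7 of 13 iron genes. Ranking by fold without a pseudocount, an alternative chosen after the data were seen, placed Hmox1 at 16, Lcn2 at 58 and Saa3 at 59. A q of at most 0.01 and minimums of 1 and 5 FPKM moved no count of listed genes and no rank of the 3 genes by over 1.5 times.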
